A study of Homo sapiens with 17 samples.

Results

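Regulators of blood stem cells and of leukaemia were followed by name through the data: MEF2C, MYB, MYC, GATA2, ERG, LMO2, RUNX1, RUNX2, SOX4 and ZEB2. They are 10 of the 58278 gene identifiers counted in each library, and they were chosen as a set of regulators, not by a threshold on their values. The cells were MOLM13, a human cell line from an acute myeloid leukaemia with the MLL-AF9 fusion, so every control and every knockout shares that fusion. RNA sequencing was carried out on 17 libraries in 2 experiments. In the first, 3 libraries had a non-targeting CRISPR guide (NT), 3 a CRISPR knockout of HOXA9 (HOXA9_KO) and 3 a CRISPR knockout of SAFB (SAFB_KO). In the other, 4 libraries had a non-targeting guide (NT_MEIS1ex) and 4 a CRISPR knockout of MEIS1 (MEIS1_KO). HOXA9 and its partner MEIS1 are DNA-binding homeobox proteins, and SAFB attaches chromatin and RNA to the nuclear matrix. The study asked how HOXA9 and SAFB act together in this leukaemia, and the comparisons below ask what each knockout did to the RNA of the 10 regulators.

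Haematopoietic stem and progenitor cells hold their identity through a small network of transcription factors that bind one another's control regions. GATA2, ERG, RUNX1 and LMO2 belong to a protein network bound together at stem cell enhancers, in which LMO2 binds no DNA itself and bridges its partners. MYB and MYC drive proliferation of progenitors, MEF2C is a stem cell and lymphoid factor recurrently active in MLL-rearranged leukaemia, SOX4 cooperates with several leukaemic oncogenes, and ZEB2 is a zinc finger repressor needed for myeloid and dendritic cell development. RUNX2 is best known from bone and is also expressed in some blood progenitors.

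Levels are counts per 1000000 assigned reads (CPM), scaled within each experiment by edgeR's TMM factors, so levels of the experiments were not scaled to each other. Assigned reads ranged from 23.3 to 67.8 M per library. Of the targeted genes, HOXA9 read 40.1 to 42.0 CPM in NT and 21.1 to 21.9 CPM in HOXA9_KO, and SAFB read 33.6 to 40.9 CPM in NT and 19.4 to 22.2 CPM in SAFB_KO. MEIS1 read 31.7 to 33.4 CPM in NT_MEIS1ex and 10.3 to 12.8 CPM in MEIS1_KO. Each targeted gene was thus lower in its knockout, with RNA remaining. Among 9 members tested, the first NT_MEIS1ex library was the highest or the lowest of its group for 8, and the other 3 for 5, 1 and 4. Its mean distance on the log2 scale from the other 3 was 0.167, against 0.055 to 0.118 for those 3. The first HOXA9_KO and SAFB_KO libraries, in groups of 3, were also extreme for 8, at mean distances of 0.0983 and 0.0529. Member calls and list counts of the MEIS1 experiment that differ without the first NT_MEIS1ex library are given both ways. Mitochondrial rRNA took 22.5 to 35.5% of assigned reads in the first experiment and at most 0.00941% in the MEIS1 experiment, and reads outside annotated genes were 16.4 to 18.1% in NT, 8.65 to 9.27% in HOXA9_KO and 10.6 to 12.7% in SAFB_KO. The part of these differences in the results was not tested. The samples are bulk RNA, in which fewer cells of a type and less RNA per cell cannot be told apart, and the labels do not say whether libraries of a group were separate cultures or clones, so p-values measure the spread between these libraries.

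The 10 members differed widely in level. Per kilobase of exon, which allows genes to be compared, MYB was the highest in NT at 81.7 ± 1.42 CPM per kb (SD, n = 3), followed by MYC at 67.5 ± 2.13, MEF2C at 32.1 ± 0.743 and LMO2 at 27.0 ± 0.697 (each SD, n = 3). ZEB2 stood at 12.5, RUNX1 at 11.5, SOX4 at 8.04, GATA2 at 7.55 and RUNX2 at 0.983 CPM per kb. Libraries of SOX4 and GATA2 overlapped in this order, and the other neighbours did not. ERG, an ETS factor of stem cells and endothelium on chromosome 21, had 0 reads in 16 of the 17 libraries and 1 read in a SAFB_KO library. A count of 0 in these libraries allows at most 0.044 to 0.13 CPM, counting error only, so ERG could not be tested and the other 9 members were.

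The order of levels moved in the knockouts. In HOXA9_KO, LMO2 at 40.4 CPM per kb and ZEB2 at 15.7 stood above MEF2C at 12.2, without overlap between the libraries. In SAFB_KO, LMO2 at 33.3 CPM per kb stood above MEF2C at 27.0, again without overlap. In NT_MEIS1ex the order began with MYC at 233 CPM per kb, ahead of MYB at 77.1, and LMO2 at 32.6, MEF2C at 30.4 and RUNX1 at 28.7 overlapped their neighbours. MEIS1_KO kept that start, with MYC at 197 and MYB at 76.5 CPM per kb.

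**Figure D1:**
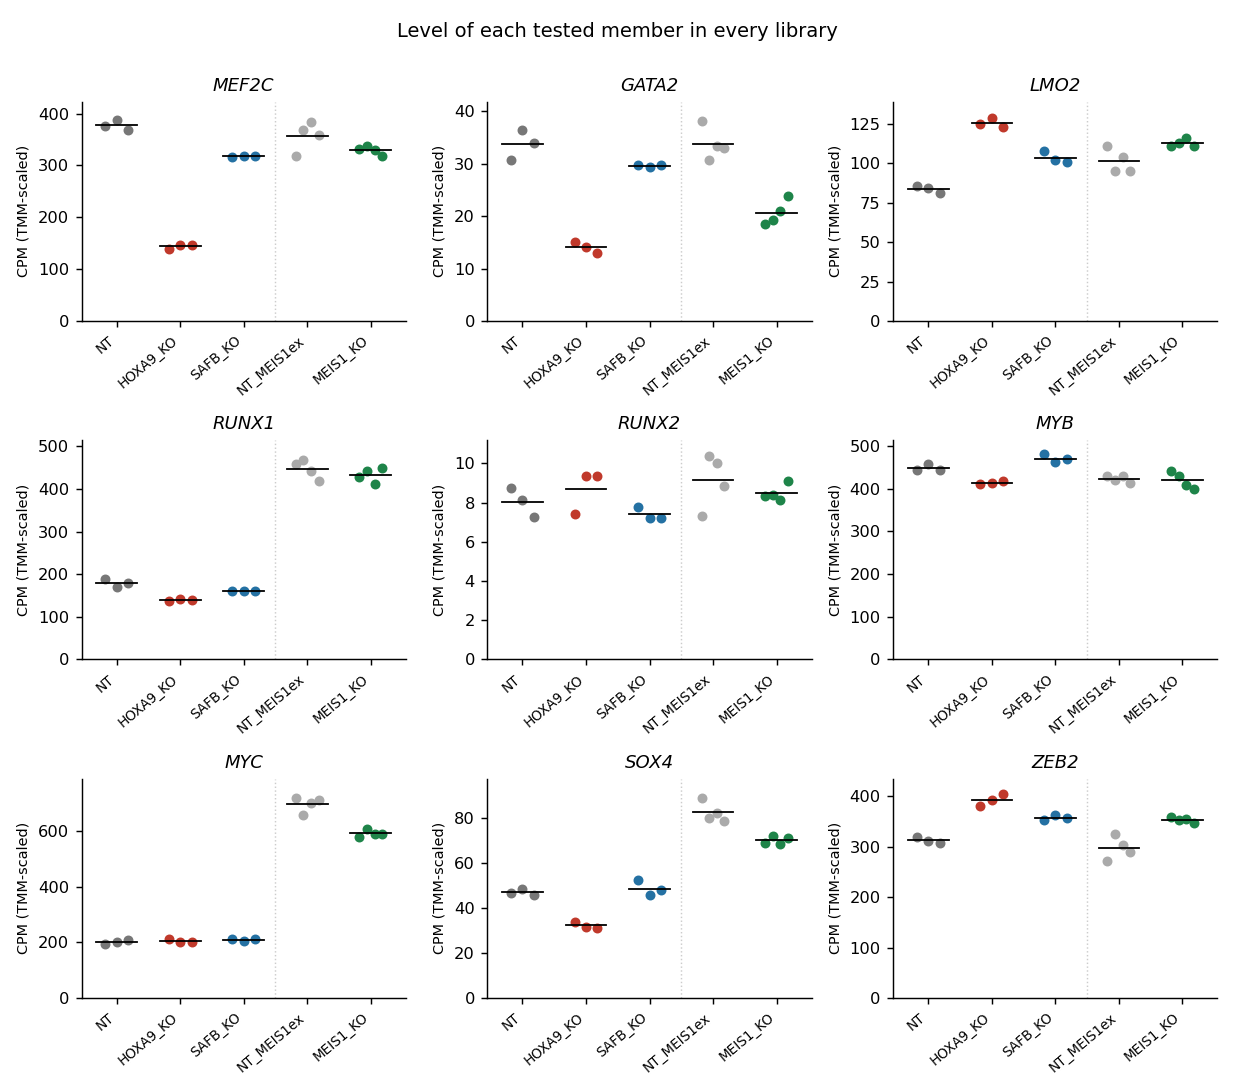
Level of the 9 tested members in every library, in TMM-scaled CPM on axes that start at 0; each point is a library, each bar the mean of its group, and the dotted line parts the experiments, which were scaled separately. MEF2C and GATA2 are lowest in HOXA9_KO, and MYC lies between 196 and 213 CPM in the first experiment and between 581 and 719 CPM in the MEIS1 experiment.

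In HOXA9_KO against NT, 7 of the 9 tested members passed an adjusted p under 0.05 in edgeR's quasi-likelihood test, 5 lower and 2 higher. Over all 18876 genes tested, 57.5% passed, with 29.9% lower and 27.6% higher. Among genes of at least 2 CPM, a level that all 9 members reach, 71.0% passed. The members' share, 77.8%, lies near that background, and their median change of -0.11 on the log2 scale lies near the -0.07 of all genes. At least a 2-fold change was seen in 2 members, MEF2C and GATA2, and in 3206 of the 18876 genes. Libraries of the groups did not overlap for 7 members, and for 62.6% of all genes.

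In SAFB_KO against NT, 5 of the 9 members passed, 3 lower and 2 higher, against 35.5% of all genes (15.3% lower, 20.2% higher) and 47.6% of genes of at least 2 CPM. With library sizes counted over nuclear protein-coding genes, a scaling described further on, 7 passed, 6 lower and 1 higher. The members' median was then -0.09, against -0.16 for all genes. No member reached a 2-fold change, as 6.54% of all genes did. Libraries did not overlap for 6 members, against 46.3% of all genes, and the median change was 0.05 for the members and -0.02 for all genes. In MEIS1_KO against NT_MEIS1ex, 4 of the 9 passed, 3 lower and 1 higher, against 8.81% of 15744 genes tested (3.84% lower, 4.97% higher) and 10.9% of genes of at least 2 CPM. The members' median change there was -0.11 against 0.00 for all genes, and 5 had libraries that did not overlap, against 15.7% of all genes. Without the first NT_MEIS1ex library 6 members passed, 4 lower and 2 higher, with a median of -0.16 against 0.00 for all genes. When each library was left out in turn, from 751 to 1772 of all genes passed in MEIS1_KO.

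**Figure D2:**
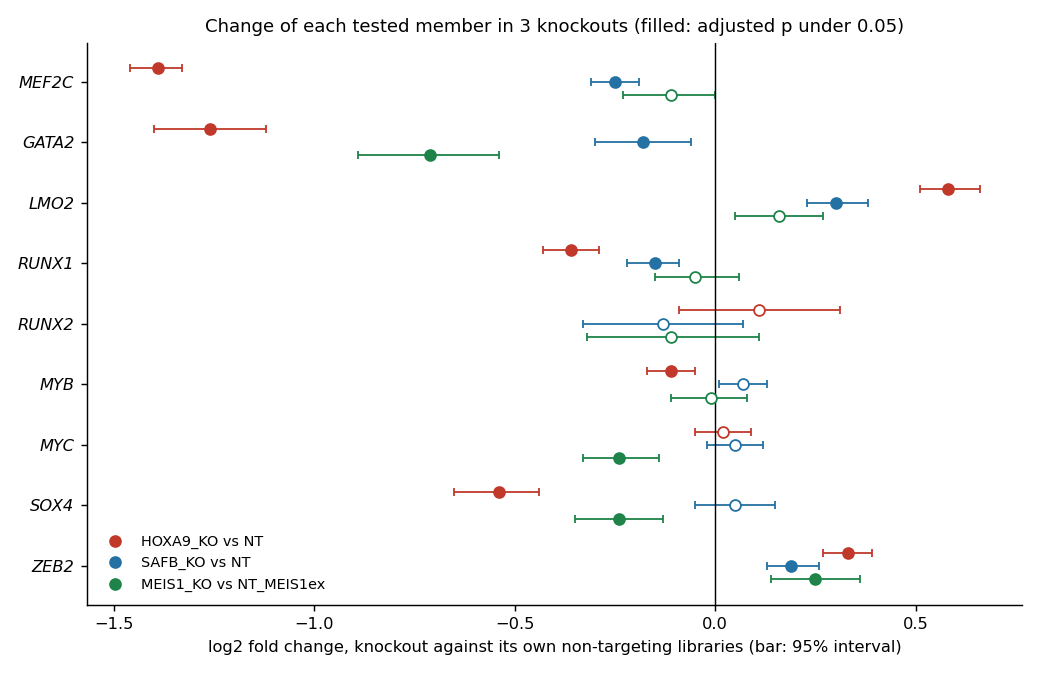
Log2 fold change of the 9 tested members in each knockout against the non-targeting libraries of its own experiment, with 95% intervals; filled points have an adjusted p under 0.05 over all genes in edgeR's test. MEF2C at -1.39 and GATA2 at -1.26 in HOXA9_KO lie farthest from 0, LMO2 and ZEB2 lie above 0 in all 3 knockouts, and the LMO2 point of MEIS1_KO is open.

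MEF2C is a MADS-box factor whose activity is held down by class IIa histone deacetylases. The gene (ENSG00000081189.15) lies on the minus strand of chromosome 5, from 88717117 to 88904257 in GRCh38. It read 377, 387 and 369 CPM in the NT libraries and 139, 146 and 147 CPM in the HOXA9_KO libraries. The groups are far apart: MEF2C fell by 1.39 ± 0.033 (SE) on the log2 scale, 2.62-fold, with an adjusted p of 3.8e-37. The SAFB_KO libraries read 316, 319 and 318 CPM, below every NT library, and MEF2C fell by 0.25 ± 0.031 (SE), with an adjusted p of 5.8e-09. The direct contrast of HOXA9_KO with SAFB_KO was -1.14 ± 0.033 (SE), with an adjusted p of 1.2e-32.

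In the MEIS1 experiment the NT_MEIS1ex libraries read 318, 369, 383 and 358 CPM for MEF2C and the MEIS1_KO libraries 332, 338, 330 and 319 CPM. The groups overlap through the first NT_MEIS1ex library, which lies below all 4 knockout libraries. The change of MEF2C was -0.11 ± 0.054 (SE, adjusted p of 0.204), and without that library it was -0.16 with an adjusted p of 0.0147. The difference between the HOXA9 and MEIS1 effects on MEF2C was -1.24 ± 0.065 (SE, adjusted p of 2.0e-17). Experiment and targeted gene cannot be told apart in such differences, since each effect was measured in its own experiment.

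Control sequence near the starts of MEF2C is shown because this gene fell most of the members in HOXA9_KO. RefSeq windows on GRCh38.p14, which hold 250 bases before and 50 after a transcript start, were found for 8 of the 10 members, 19 windows in all, and MYC and LMO2 had none. The MEIS motif TGACAG, searched on both strands, was in 3 of these 19 windows, all of MEF2C, and in 15.8% of all 35116 windows. Below are the 250 bases before 2 of those starts, at chr5:88824345-88824594 and chr5:88827193-88827442 on the minus strand, written 5′ to 3′ along the gene. Both lie within the span of MEF2C and outside its annotated exons. Capitals mark the match to the MEIS motif, here as CTGTCA, and to the SOX motif AACAAT, here as ATTGTT.
MEF2C start A: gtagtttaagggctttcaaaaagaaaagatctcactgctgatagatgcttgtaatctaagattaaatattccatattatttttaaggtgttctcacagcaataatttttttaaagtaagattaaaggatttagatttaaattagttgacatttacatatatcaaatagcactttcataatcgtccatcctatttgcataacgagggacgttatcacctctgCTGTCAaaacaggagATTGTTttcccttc
MEF2C start B: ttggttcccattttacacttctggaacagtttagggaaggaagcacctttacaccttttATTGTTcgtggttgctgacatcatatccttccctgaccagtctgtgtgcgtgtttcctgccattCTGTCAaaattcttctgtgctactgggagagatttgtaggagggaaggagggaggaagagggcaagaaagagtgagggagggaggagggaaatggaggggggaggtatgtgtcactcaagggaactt

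The HOX-PBX motif TGATTTAT and the MYC E-box CACGTG were in 0 of the 19 windows, against 0.846% and 7.26% of all windows. Neither MYC nor LMO2 is covered by the 19 windows. The motif matches are descriptions of letters. They say nothing about whether a factor binds there.

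The other stem cell network members went in different directions. GATA2 is the zinc finger factor that maintains stem cells and is switched off as they mature. The gene (ENSG00000179348.11) lies on the minus strand of chromosome 3, from 128479427 to 128493185. It read 30.7, 36.4 and 33.9 CPM in NT and 15.1, 14.1 and 12.9 CPM in HOXA9_KO. Every HOXA9_KO library lay below every NT library, and GATA2 fell by 1.26 ± 0.067 (SE) on the log2 scale, 2.39-fold, with an adjusted p of 4.2e-22. SAFB_KO libraries read 29.8, 29.4 and 29.7 CPM, just under the lowest NT library. That fall, by 0.18 ± 0.061 (SE), had an adjusted p of 0.0174 in edgeR's test and did not hold everywhere: the change was -0.12 (adjusted p of 0.187) without the second NT library, -0.17 (0.062) without the second SAFB_KO library and -0.17 (0.0526) with DESeq2.

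MEIS1_KO gave the largest member change of its experiment in GATA2. The NT_MEIS1ex libraries read 38.2, 30.6, 33.3 and 32.9 CPM and the MEIS1_KO libraries 18.5, 19.3, 20.9 and 23.8 CPM. The groups did not overlap, and GATA2 fell by 0.71 ± 0.082 (SE), 1.64-fold, with an adjusted p of 3.3e-05. In HOXA9_KO, where GATA2 fell more, MEIS1 RNA was itself lower, by 1.54 on the log2 scale, as it was in MEIS1_KO, also by 1.54. A link between the falls of MEIS1 and GATA2 in HOXA9_KO was not tested. The HOXA9 effect minus the MEIS1 effect on GATA2 was -0.50 ± 0.11 (SE, adjusted p of 5.2e-04), the deeper fall being in HOXA9_KO. The SAFB effect minus the MEIS1 effect was 0.54 ± 0.11 (SE, adjusted p of 5.2e-04). Under the settings of the report, GATA2 was the only one of the 9 tested members called lower in all 3 knockouts. Its call in SAFB_KO did not hold everywhere, as given above. MEF2C was also called lower in all 3 once the first NT_MEIS1ex library was left out.

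The 2 annotated starts of GATA2 with RefSeq windows are shown because of its calls under the settings of the report. The 250 bases before each, at chr3:128488531-128488780 within the gene's span and at chr3:128493202-128493451 upstream of it, hold no annotated exon and are written 5′ to 3′ along the minus strand. Capitals mark the ZEB E-box CACCTG, here as CAGGTG at the first start. The ETS motif CAGGAAG was found 23 bases after the other start, outside the bases printed, and no motif of the 10 searched was found in its 250 upstream bases.
GATA2 start A: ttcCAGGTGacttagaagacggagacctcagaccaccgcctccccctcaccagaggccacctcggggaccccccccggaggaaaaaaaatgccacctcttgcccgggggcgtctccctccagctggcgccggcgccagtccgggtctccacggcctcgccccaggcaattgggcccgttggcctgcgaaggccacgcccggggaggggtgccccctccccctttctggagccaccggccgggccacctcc
GATA2 start B: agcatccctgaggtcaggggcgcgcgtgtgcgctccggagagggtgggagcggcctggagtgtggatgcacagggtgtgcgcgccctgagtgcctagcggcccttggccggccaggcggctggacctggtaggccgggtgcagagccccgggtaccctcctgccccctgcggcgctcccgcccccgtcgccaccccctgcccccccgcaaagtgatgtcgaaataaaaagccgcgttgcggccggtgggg

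The ZEB E-box was in 5 of the 19 member windows and in 20.6% of all windows, and the ETS motif in 5 and in 12.7%. The windows of ERG share bases with each other, so these counts are not independent.

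LMO2, the bridging protein of the same network, moved the other way. The gene (ENSG00000135363.11) lies on the minus strand of chromosome 11, from 33858576 to 33892289. NT libraries read 85.5, 84.6 and 81.4 CPM, HOXA9_KO libraries 125, 129 and 123 CPM and SAFB_KO libraries 108, 102 and 101 CPM. The 3 groups are separated from each other, with HOXA9_KO the highest. LMO2 rose by 0.58 ± 0.038 (SE, adjusted p of 5.2e-19) in HOXA9_KO and by 0.30 ± 0.038 (SE, adjusted p of 3.5e-09) in SAFB_KO, and the knockouts differed by 0.28 ± 0.038 (SE, adjusted p of 1.9e-08).

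NT_MEIS1ex libraries read 111, 95.5, 104 and 95.4 CPM for LMO2 and MEIS1_KO libraries 111, 113, 116 and 111 CPM. Every MEIS1_KO library lay above every control, the first NT_MEIS1ex library by little. The change of 0.16 ± 0.054 (SE) had an adjusted p of 0.0742, and without that library it was 0.20 with an adjusted p of 0.00573. The HOXA9 and MEIS1 effects on LMO2 differed by 0.47 ± 0.071 (SE, adjusted p of 1.4e-06), and by 0.15 (adjusted p of 0.0783) when scaled to nuclear protein-coding counts.

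RUNX1 is the core-binding factor that establishes blood stem cells and is a frequent target of leukaemic translocations. The gene (ENSG00000159216.18) lies on the minus strand of chromosome 21, from 34787801 to 36004667. It read 188, 171 and 179 CPM in NT, 137, 142 and 139 CPM in HOXA9_KO and 161, 160 and 161 CPM in SAFB_KO. The groups form 3 steps without overlap. RUNX1 fell by 0.36 ± 0.035 (SE, adjusted p of 6.4e-13) in HOXA9_KO and by 0.15 ± 0.035 (SE, adjusted p of 3.1e-04) in SAFB_KO. In the MEIS1 experiment the libraries read 459, 469, 442 and 418 CPM in NT_MEIS1ex and 427, 443, 412 and 449 CPM in MEIS1_KO, overlapping groups with a change of -0.05 (95% interval -0.15 to 0.06, adjusted p of 0.618).

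RUNX2, its relative, was the lowest of the tested members. NT libraries read 8.75, 8.13 and 7.28 CPM, HOXA9_KO libraries 7.43, 9.36 and 9.35 CPM and SAFB_KO libraries 7.78, 7.22 and 7.22 CPM. The groups overlap. The log2 changes were 0.11 ± 0.1 (SE, adjusted p of 0.354) in HOXA9_KO, -0.13 ± 0.1 (SE, adjusted p of 0.336) in SAFB_KO and -0.11 ± 0.1 (SE, adjusted p of 0.59) in MEIS1_KO, where libraries read 8.15 to 9.13 CPM against 7.32 to 10.4 CPM in NT_MEIS1ex. Of the 19 windows, 1 held the RUNX motif TGTGGT, a window of RUNX2 with 4 matches, and 13.1% of all windows held it.

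MYB and MYC, the proliferation factors, showed small differences in the first experiment. MYB (ENSG00000118513.18) lies on the plus strand of chromosome 6, from 135181315 to 135219173. It read 445, 458 and 444 CPM in NT, 411, 413 and 419 CPM in HOXA9_KO and 481, 462 and 469 CPM in SAFB_KO. The groups are separated but close: MYB fell by 0.11 ± 0.03 (SE, adjusted p of 9.6e-04) in HOXA9_KO, and the change in SAFB_KO was 0.07 ± 0.03 (SE, adjusted p of 0.066). The latter passed with DESeq2 (0.08, adjusted p of 0.0217) and with limma-voom (0.07, adjusted p of 0.0228). In the MEIS1 experiment MYB ranged from 414 to 430 CPM in NT_MEIS1ex and from 399 to 441 CPM in MEIS1_KO, with a change of -0.01 (95% interval -0.11 to 0.08).

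MYC is the basic helix-loop-helix factor that drives growth and ribosome production, on chromosome 8. It read 196, 203 and 209 CPM in NT, 213, 202 and 201 CPM in HOXA9_KO and 211, 205 and 213 CPM in SAFB_KO. All 3 groups overlap, with changes of 0.02 (95% interval -0.05 to 0.09, adjusted p of 0.633) in HOXA9_KO and 0.05 (95% interval -0.02 to 0.12, adjusted p of 0.261) in SAFB_KO. In the MEIS1 experiment NT_MEIS1ex libraries read 719, 658, 703 and 714 CPM and MEIS1_KO libraries 581, 610, 590 and 590 CPM. These groups did not overlap, and MYC fell by 0.24 ± 0.045 (SE, adjusted p of 0.00265). The HOXA9 effect on MYC differed from the MEIS1 effect by 0.30 ± 0.063 (SE, adjusted p of 1.7e-04) and the SAFB effect by 0.29 ± 0.063 (SE, adjusted p of 7.8e-04). Neither difference passed when scaled to nuclear protein-coding counts, with -0.02 (adjusted p of 0.758) and 0.12 (adjusted p of 0.118).

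SOX4 is an HMG-box factor of progenitors, encoded by a gene with a single exon (ENSG00000124766.6) on the plus strand of chromosome 6, from 21592768 to 21598619. It read 46.9, 48.4 and 45.9 CPM in NT, 33.8, 31.8 and 31.3 CPM in HOXA9_KO and 52.5, 45.9 and 47.9 CPM in SAFB_KO. HOXA9_KO stands below the other groups, which overlap. SOX4 fell by 0.54 ± 0.053 (SE, adjusted p of 8.1e-13) in HOXA9_KO, and its change in SAFB_KO was 0.05 ± 0.051 (SE, adjusted p of 0.478). NT_MEIS1ex libraries read 89.3, 80.2, 82.4 and 78.9 CPM and MEIS1_KO libraries 69.1, 72.0, 68.5 and 71.1 CPM, without overlap, a fall by 0.24 ± 0.052 (SE, adjusted p of 0.00717). HOXA9_KO and SAFB_KO differed in SOX4 by -0.59 ± 0.054 (SE, adjusted p of 2.0e-13).

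ZEB2 (ENSG00000169554.18) lies on the minus strand of chromosome 2, from 144364364 to 144524583. It read 320, 311 and 308 CPM in NT, 381, 393 and 404 CPM in HOXA9_KO and 353, 363 and 357 CPM in SAFB_KO. The 3 groups are separated, with NT the lowest. ZEB2 rose by 0.33 ± 0.031 (SE, adjusted p of 4.0e-13) in HOXA9_KO and by 0.19 ± 0.031 (SE, adjusted p of 1.2e-06) in SAFB_KO. MEIS1_KO libraries read 359, 354, 355 and 347 CPM against 272, 325, 303 and 289 CPM in NT_MEIS1ex, again without overlap, and ZEB2 rose by 0.25 ± 0.052 (SE, adjusted p of 0.00543). Under the settings of the report, ZEB2 was the only one of the 9 tested members called higher in all 3 knockouts. LMO2 was called higher in all 3 as well once the first NT_MEIS1ex library was left out. The rise of ZEB2 in SAFB_KO depends on the scaling described next. With that scaling LMO2, and not ZEB2, was called higher in all 3.

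The choice of scaling bears on these directions in the first experiment. When library sizes were counted over nuclear protein-coding genes in place of TMM, the median change of all genes moved from -0.07 to -0.32 in HOXA9_KO and from -0.02 to -0.16 in SAFB_KO, and in MEIS1_KO from 0.00 to 0.03. Against zero, ZEB2 in SAFB_KO was then 0.06 (adjusted p of 0.144), MYC in HOXA9_KO was -0.23 (adjusted p of 2.2e-08), MYC in SAFB_KO was -0.09 (adjusted p of 0.0209) and MYB in SAFB_KO was -0.07 (adjusted p of 0.0429). Each of those 4 values lay above the shifted median of its knockout. MEF2C at -1.64, GATA2 at -1.51, SOX4 at -0.80 and RUNX1 at -0.62 were still called lower in HOXA9_KO, and LMO2 at 0.33 and ZEB2 at 0.08 were still called higher. The members called were then 2 higher and 6 lower in HOXA9_KO, 1 higher and 6 lower in SAFB_KO and 2 higher and 3 lower in MEIS1_KO. Their medians were -0.37, -0.09 and -0.08, against -0.32, -0.16 and 0.03 for all genes. Over all genes the calls in HOXA9_KO were then 2861 higher and 9293 lower, and in SAFB_KO 1712 higher and 5535 lower.

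**Figure D3:**
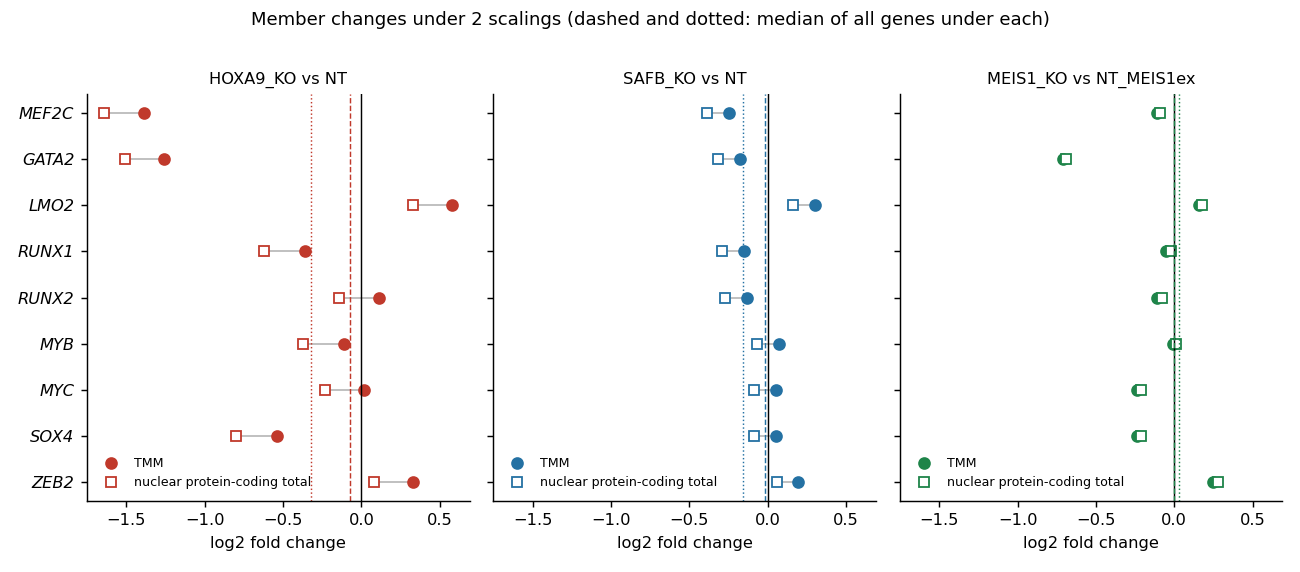
Log2 fold change of the 9 tested members under TMM scaling (filled circles) and with library sizes counted over nuclear protein-coding genes (open squares), one panel per knockout; the dashed and dotted lines mark the median of all genes under each scaling. Members and median move together, from -0.07 to -0.32 in HOXA9_KO, and in that panel the order of the members is the same under both scalings.

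Ratios of 2 members within a library need no scaling. MEF2C reads per LMO2 read were 4.41, 4.57 and 4.54 in NT, 1.11, 1.13 and 1.19 in HOXA9_KO and 2.94, 3.13 and 3.15 in SAFB_KO, 3 groups without overlap. In the MEIS1 experiment this ratio was 2.88, 3.86, 3.69 and 3.75 in NT_MEIS1ex and 2.98, 2.98, 2.84 and 2.88 in MEIS1_KO, and the first NT_MEIS1ex library lay among the knockouts. GATA2 reads per LMO2 read went from a mean of 0.402 in NT to 0.112 in HOXA9_KO and 0.286 in SAFB_KO, and from 0.333 in NT_MEIS1ex to 0.183 in MEIS1_KO. SOX4 reads per LMO2 read went from 0.561 to 0.257 and 0.471, and from 0.818 to 0.621. LMO2, the divisor, itself rose in HOXA9_KO and SAFB_KO, and SOX4 was not called in SAFB_KO. Per MYB read, SOX4 was 0.105 in NT, 0.0779 in HOXA9_KO and 0.104 in SAFB_KO. For all 3 ratios to LMO2, HOXA9_KO had the lowest values of its experiment.

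The ratios also set the experiments side by side. MYC reads per MYB read were 0.440 to 0.470 in NT and 1.57 to 1.72 in NT_MEIS1ex, groups that both carry a non-targeting guide. RUNX1 reads per MYB read were 0.399 ± 0.0248 (SD, n = 3) in NT and 1.06 ± 0.0471 (SD, n = 4) in NT_MEIS1ex. For SOX4 per MYB read the means were 0.105 and 0.195. MEF2C reads per MYB read differed little, with means of 0.841 and 0.843. So MYC, RUNX1 and SOX4 stood higher relative to MYB in the MEIS1 experiment in both of its groups, and MEF2C did not. Experiment and library handling, including the share of mitochondrial rRNA, cannot be told apart here.

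**Figure D4:**
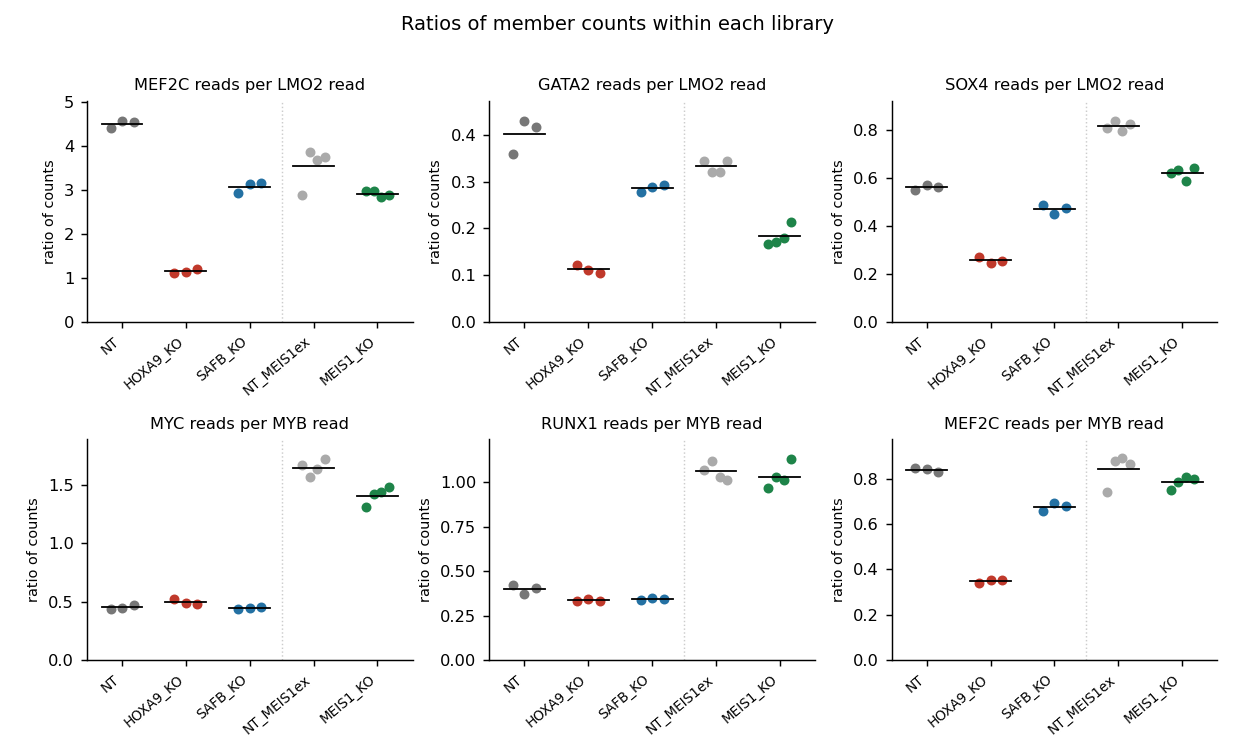
Counts of a member divided by counts of another in the same library, on axes that start at 0; points are libraries, bars are group means and the dotted line parts the experiments. MEF2C per LMO2 read drops from 4.51 in NT to 1.15 in HOXA9_KO, and MYC per MYB read is 0.452 in NT and 1.65 in NT_MEIS1ex.

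HOXA9_KO and SAFB_KO were also contrasted directly. In that contrast 7 of the 9 members passed, 5 lower and 2 higher in HOXA9_KO, against 40.6% of all genes (20.5% lower, 20.1% higher) and 56.0% of genes of at least 2 CPM, and libraries of 7 did not overlap, against 48.3% of all genes. MEF2C, GATA2, SOX4, RUNX1 at -0.21 (adjusted p of 2.6e-06) and MYB at -0.18 (adjusted p of 1.3e-06) were lower in HOXA9_KO. LMO2 and ZEB2, at 0.13 (adjusted p of 3.9e-04), were higher, and the ZEB2 call was lost when scaled to nuclear protein-coding counts (0.02, adjusted p of 0.607). In the test of the HOXA9 effect against the MEIS1 effect 6 members passed, 4 lower and 2 higher, against 44.2% of all genes (19.7% lower, 24.5% higher) and 57.0% of genes of at least 2 CPM. For the SAFB effect against the MEIS1 effect 3 passed, all higher, MYC, GATA2 and SOX4, against 20.9% of all genes (8.49% lower, 12.4% higher) and 28.4% of genes of at least 2 CPM. Scaled to nuclear protein-coding counts, these splits turned. The HOXA9 effect minus the MEIS1 effect then had 0 members higher and 6 lower, with MYB at -0.38 (adjusted p of 1.7e-06) and ZEB2 at -0.20 (adjusted p of 0.0125) newly lower, beside 1867 genes higher and 7777 lower and a median of -0.34 over all genes. The SAFB effect minus the MEIS1 effect had 1 member higher, GATA2 at 0.37, and 3 lower, MEF2C at -0.30 (adjusted p of 0.00144), RUNX1 at -0.27 (adjusted p of 0.00246) and ZEB2 at -0.22 (adjusted p of 0.0158), beside 612 genes higher and 3496 lower and a median of -0.18. SOX4 there was 0.12 (adjusted p of 0.251). The direct contrast had 1 member higher and 6 lower, with a median of -0.30 for the members and -0.13 for all genes. HOXA9_KO and SAFB_KO share their NT libraries, so their values are given side by side only.

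Relatives of the members in the same gene families were measured next. Beside this and the following lists stand the shares of all genes. These were 27.6% higher and 29.9% lower in HOXA9_KO, 20.2% and 15.3% in SAFB_KO and 4.97% and 3.84% in MEIS1_KO. Among genes of at least 2 CPM, 71.0%, 47.6% and 10.9% passed in either direction in HOXA9_KO, SAFB_KO and MEIS1_KO. Of 16 relatives, 10 were tested in the first experiment. In HOXA9_KO 3 were called higher and 6 lower, with a median of -0.20. MYBL2, a cell cycle relative of MYB, fell by 0.78 from 75.0 to 43.5 CPM, and MEF2D fell by 0.37 from 339 to 262 CPM. MYCL rose by 1.08 from 6.81 to 14.4 CPM, and FLI1, the closest relative of the unexpressed ERG, rose by 0.33 from 80.0 to 101 CPM. In SAFB_KO 3 were higher and 2 lower, among them MYCL at 0.49, FLI1 at 0.14, MEF2A at -0.22 and MYBL1 at -0.35. In MEIS1_KO 1 of 12 was called, MYBL2, which fell by 0.17. Scaled to nuclear protein-coding counts, the split was 1 higher and 7 lower in HOXA9_KO and 1 higher and 6 lower in SAFB_KO. The relatives' medians were then -0.45 and -0.16, against -0.32 and -0.16 for all genes.

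Partners and cofactors of the members were called higher more often than lower under TMM scaling. All genes were called higher and lower in 27.6% and 29.9% in HOXA9_KO, 20.2% and 15.3% in SAFB_KO and 4.97% and 3.84% in MEIS1_KO. Of 26 tested, 12 were called higher and 6 lower in HOXA9_KO (median 0.10), 7 higher and 1 lower in SAFB_KO and 3 higher and 0 lower in MEIS1_KO (4 higher without the first NT_MEIS1ex library). MXD1, which competes with MYC for their shared partner MAX, rose by 1.55 in HOXA9_KO from 32.8 to 95.9 CPM, by 0.50 in SAFB_KO and by 0.24 in MEIS1_KO. MXD4, of the same family, rose by 0.93 in HOXA9_KO and by 0.56 in SAFB_KO. The family did not move as one: MXD3, named after its values were seen, fell by 0.86 in HOXA9_KO from 6.36 to 3.49 CPM. Its change in SAFB_KO was -0.11 (adjusted p of 0.482). HDAC4 and HDAC9, class IIa deacetylases that bind MEF2 factors, rose by 0.89 and 0.45 in HOXA9_KO, by 0.45 and 0.33 in SAFB_KO and by 0.23 and 0.18 in MEIS1_KO. Scaled to nuclear protein-coding counts, the split of the list turned to 8 higher and 14 lower in HOXA9_KO and 4 higher and 9 lower in SAFB_KO. Its medians were then -0.15 and -0.09, against -0.32 and -0.16 for all genes.

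RNAs transcribed beside the members were counted as well. For comparison, 27.6% of all genes were called higher and 29.9% lower in HOXA9_KO, and 20.2% and 15.3% in SAFB_KO. MEF2C-AS1, antisense to MEF2C, fell by 1.29 in HOXA9_KO from 11.9 to 4.87 CPM and by 0.80 in SAFB_KO to 6.80 CPM, and read 4.57 CPM in both groups of the MEIS1 experiment. MYB-AS1 fell by 0.67 and PVT1, beside MYC, rose by 0.16 in HOXA9_KO. GATA2-AS1 fell by 0.33 in SAFB_KO, and its change was 0.13 (adjusted p of 0.156) in HOXA9_KO, where GATA2 fell most, and -0.35 (adjusted p of 0.0614) in MEIS1_KO. In HOXA9_KO it stood higher than in SAFB_KO, by 0.46 (adjusted p of 6.8e-06). Of 7 such RNAs tested, 1 was called higher and 2 lower in HOXA9_KO and 0 higher and 2 lower in SAFB_KO, and 0 of 5 were called in MEIS1_KO. With the nuclear protein-coding totals, 0 were higher and 3 lower in HOXA9_KO, so the rise of PVT1 was lost, and 0 were higher and 4 lower in SAFB_KO. The exons of MEF2C overlap those of antisense genes over 5.36% of their length, those of ZEB2 over 5.18%, of SOX4 over 2.87% and of MYB over 1.88%. Whether the counting used the strand is not stated, so reads of an antisense pair may not have been kept apart. No other member overlaps or shares 100-base stretches with another gene.

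Most other regulators of stem cells and leukaemia were lower in HOXA9_KO. Of 11 tested, 8 were called lower and 0 higher, with a median of -1.04, and TCF7L2, HHEX and ETV6, named after their values were seen, did not pass. MEIS1 fell by 1.54, its partner PBX3 by 1.04, BCL11A by 1.24 and IKZF2 by 1.94. In SAFB_KO 6 were lower and 1 higher (median -0.27), with IKZF2 at -0.73, BCL11A at -0.38, MEIS1 at -0.31 and PBX3 at -0.27. In MEIS1_KO 2 were lower, MEIS1 itself and BCL11A at -0.17. Under nuclear protein-coding scaling, 10 were lower in HOXA9_KO, 7 lower and 0 higher in SAFB_KO and 1 lower in MEIS1_KO. This list holds MEIS1, which was a target of the study. Over all genes, the shares called lower were 29.9% in HOXA9_KO, 15.3% in SAFB_KO and 3.84% in MEIS1_KO. The shares called higher were 27.6%, 20.2% and 4.97%.

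Genes reported as targets of MYC were read beside MYC. The background of all genes was 27.6% higher and 29.9% lower in HOXA9_KO, 20.2% and 15.3% in SAFB_KO and 4.97% and 3.84% in MEIS1_KO. Of 20 tested, 4 were called higher and 8 lower in HOXA9_KO (median -0.05), 8 higher and 2 lower in SAFB_KO (median 0.08) and 0 higher and 8 lower in MEIS1_KO (median -0.17), where MYC itself fell. CCND2, a cyclin, fell by 0.31, NME1, a nucleotide kinase, by 0.24, CDK4 by 0.22 and SRM, which makes spermidine, by 0.21 in MEIS1_KO. Without the first NT_MEIS1ex library 10 of the 20 were lower. In the first experiment FBL, a nucleolar methyltransferase, rose by 0.42 and LDHA fell by 0.26 in HOXA9_KO, and ODC1 rose by 0.26 and HSPD1 by 0.17 in SAFB_KO. With the nuclear protein-coding totals, the splits turned to 1 higher and 16 lower in HOXA9_KO and 1 higher and 7 lower in SAFB_KO. MEIS1_KO then had 0 higher and 6 lower. The list's medians were then -0.30, -0.06 and -0.14 in HOXA9_KO, SAFB_KO and MEIS1_KO, against -0.32, -0.16 and 0.03 for all genes.

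Reported targets of MYB and MEF2C split in both directions. So did all genes, with 27.6% higher and 29.9% lower in HOXA9_KO, 20.2% and 15.3% in SAFB_KO and 4.97% and 3.84% in MEIS1_KO. Of 14 tested in the first experiment, 8 were called higher and 3 lower in HOXA9_KO and 6 higher and 4 lower in SAFB_KO, and of 13 in MEIS1_KO 3 were higher and 2 lower (2 and 2 without the first NT_MEIS1ex library). Under nuclear protein-coding scaling, the split was 7 higher and 6 lower in HOXA9_KO, 4 higher and 5 lower in SAFB_KO and 4 higher and 2 lower in MEIS1_KO. BCL2, a survival gene, fell by 1.71, 0.65 and 0.32 in HOXA9_KO, SAFB_KO and MEIS1_KO. FLT3, a receptor of progenitors, fell by 1.07 in HOXA9_KO and by 0.30 in SAFB_KO. MPO, an enzyme of myeloid granules, rose by 2.48 in HOXA9_KO and by 0.58 in MEIS1_KO and fell by 0.17 in SAFB_KO (adjusted p of 0.0262). HDAC9 and the member MYC are counted here as well. MYC, at -0.24, and BCL2 are the 2 called lower in MEIS1_KO.

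**Figure D5:**
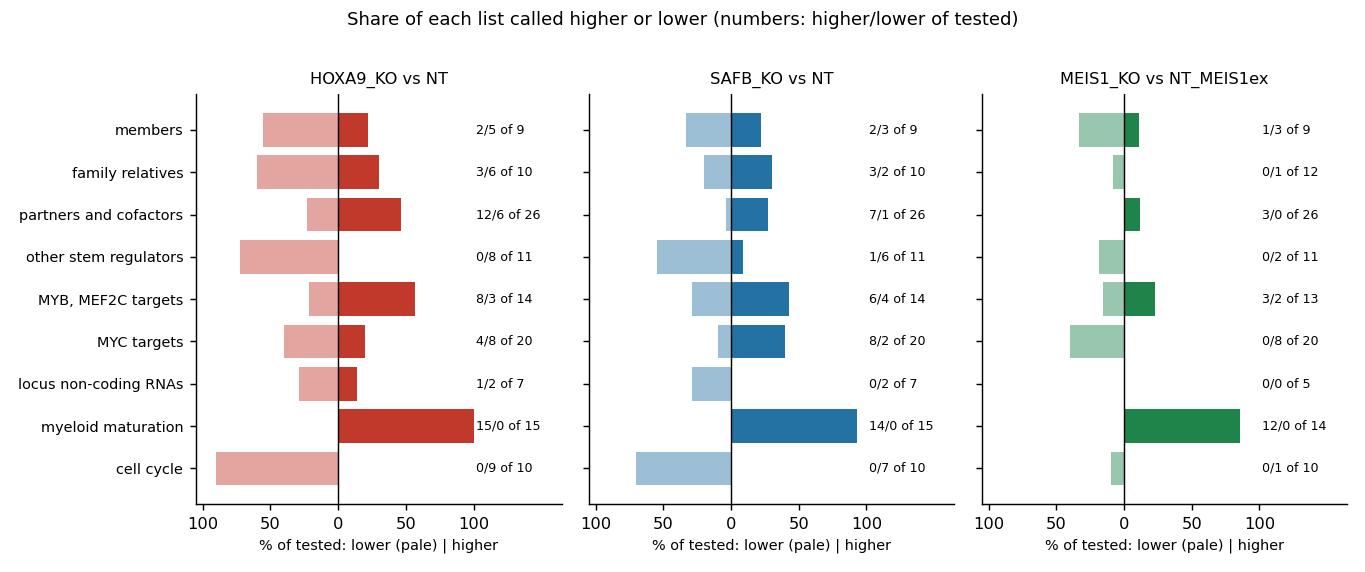
Percentage of each list's tested genes called higher (dark, to the right) or lower (pale, to the left) at an adjusted p under 0.05 under TMM scaling, one panel per knockout; numbers give higher/lower of tested. Maturation genes are higher in 15 of 15, 14 of 15 and 12 of 14, against 27.6%, 20.2% and 4.97% of all genes. The members are called in both directions in every panel.

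Maturation genes were higher in all 3 knockouts, and cell cycle genes were lower mainly in the first experiment. Higher calls took 27.6%, 20.2% and 4.97% of all genes in HOXA9_KO, SAFB_KO and MEIS1_KO. Lower calls took 29.9%, 15.3% and 3.84%. Monocyte and granulocyte maturation genes were called higher in 15 of 15 in HOXA9_KO (median 1.96), 14 of 15 in SAFB_KO (median 1.20) and 12 of 14 in MEIS1_KO (median 0.75, and 11 of 14 without the first NT_MEIS1ex library). Their summed level was 4590 to 4690 CPM in NT, 29900 to 32900 in HOXA9_KO, 13100 to 14800 in SAFB_KO, 3370 to 5080 in NT_MEIS1ex and 7140 to 7530 in MEIS1_KO. Cell cycle genes were called lower in 9 of 10, 7 of 10 and 1 of 10, and summed to 1470 to 1560 CPM in NT, 863 to 892 in HOXA9_KO and 1300 to 1340 in SAFB_KO. In the MEIS1 experiment these sums overlapped, at 1880 to 1990 CPM in NT_MEIS1ex and 1760 to 1920 CPM in MEIS1_KO. Scaled to nuclear protein-coding counts, maturation genes were higher in 15 of 15, 13 of 15 and 13 of 14. Cell cycle genes were then lower in 10 of 10, 9 of 10 and 1 of 10. Cell cycle medians were -1.02, -0.30 and -0.04, against -0.32, -0.16 and 0.03 for all genes. The part of these shifts in the members' changes was not tested.

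Markers of the labelled lineage were present, with 12 myeloid markers summing to at least 4560 CPM in every library, led by LYZ. Of the other lineages, lymphoid markers summed to 94.8 to 450 CPM, mostly from CD4, and endothelial markers to 159 to 504 CPM, nearly all from PECAM1, both also expressed by monocytes. Erythroid and megakaryocyte markers summed to at most 22.8 CPM, led by EPOR, mast cell and basophil markers to at most 2.86 CPM and epithelial and stromal markers to 9.79 to 11.4 CPM in NT. CPA3, a defining marker of mast cells, had 0 reads in every group.

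Genes whose pattern over the 17 libraries was most like each member's were named by the root mean square of the difference in log2 CPM, each experiment measured from its own non-targeting mean, among 10811 protein-coding genes. MYB lay closest to FXR1 and EIF3A, each at 0.032, and MYC to DNAJA3 at 0.04 and PDCD2 at 0.042. MEF2C lay closest to SENP6 at 0.083 and CENPU at 0.087, and GATA2 to DDN and ISYNA1, each at 0.17, the most distant of these pairs. LMO2 was nearest to CEP164 at 0.056 and HARS2 at 0.058, ZEB2 to NCOA3 and CTNNA1, each at 0.055, and RUNX1 to PHF19 at 0.053 and NSMCE4A at 0.063. SOX4 lay at 0.078 from MSH6, and RUNX2 was nearest to SLC16A7 at 0.09 and RB1 at 0.099. Between members the smallest distance was 0.13, of MYB and MYC, then 0.15, of LMO2 and ZEB2 and of MYB and RUNX1. The members that changed most in opposite directions were the farthest apart, GATA2 from LMO2 at 0.9 and MEF2C from LMO2 at 0.88, and MEF2C and GATA2, which both fell in HOXA9_KO, were 0.33 apart.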

How the data were processed

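The authors deposited whole-number counts per gene for each of the 17 libraries. Per the labels' protocols, total RNA was depleted of ribosomal RNA and made into directional libraries read as pairs on a HiSeq instrument. The submitters' processing notes list hg38 as the genome and, as tools, HTSeq 1.99.2, STAR 2.7.10a, bedtools and Trim Galore. Annotation release and strand setting: not given in the sources used here. Lines that name no gene (5 per file) were left out of totals. The 8 count tables of the MEIS1 experiment are tab-separated, and their deposited values, recorded as another unit because of that layout, were checked to be whole-number counts too.

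Names, positions and exon lengths were read from GENCODE 29, where 57940 of the 58278 identifiers were found, and promoter windows from RefSeq (GRCh38.p14). Counts were fitted with edgeR 4.0.16 under R 4.3.3: filterByExpr (10 counts, 15 in total), TMM, the robust quasi-likelihood F test and Benjamini-Hochberg adjustment over all tested genes. The SE is the size of a log2 change divided by the root of F. Fits held 9 libraries (HOXA9 and SAFB experiment), 8 (MEIS1 experiment) or all 17 (differences of effects), with common biological variation of 4.63%, 6.75% and 5.92%. No 2 libraries of a group held the same counts, by a chi-square per gene of at least 2.9 over 21 pairs. Pattern likeness used a pseudocount of 0.25 CPM.

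The members and lists were chosen with earlier results of these data known. Named genes were every member, the 3 targets, at most 4 of each list by smallest p in a comparison, and the 2 genes nearest each member in pattern, of which 1 is not reported here. The lists are family relatives, partners and cofactors, other regulators, reported MYB and MEF2C targets, MYC targets, RNAs of the members' loci, maturation, cell cycle and markers of 6 lineages. Alternatives were RLE factors, scaling to nuclear protein-coding counts, no filter, at least 2 CPM, DESeq2 1.42.0, limma 3.58.1 (voom), a replicate block, other libraries in the fit and leaving out each library. On simulated counts with 200 genes changed, a change of 0.5 on the log2 scale was recovered in 52% of genes for HOXA9_KO (18227 tested), 55% for SAFB_KO (18224) and 64% for MEIS1_KO (15412). The changed genes were drawn at random from all genes that passed the filter, at any level, so these shares do not describe the members.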

Additional observations from a re-analysis of the deposited data

Results flagged for a closer look

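Tests of the difference between knockout effects, each effect taken against its own non-targeting libraries, passed an adjusted p under 0.05 in edgeR's test for 9 pairs of member and contrast. For the HOXA9 effect minus the MEIS1 effect, the differences on the log2 scale were -1.24 for MEF2C, -0.50 for GATA2, -0.28 for RUNX1 (adjusted p of 6.9e-04), -0.26 for SOX4 (adjusted p of 0.00609), 0.47 for LMO2 and 0.30 for MYC. For the SAFB effect minus the MEIS1 effect they were 0.54 for GATA2, 0.30 for SOX4 (adjusted p of 0.0053) and 0.29 for MYC. Experiment and targeted gene cannot be told apart in any of them. Scaled to nuclear protein-coding counts, the HOXA9 and MEIS1 effects differed by -0.02 for MYC and 0.15 for LMO2, and the SAFB and MEIS1 effects by 0.12 for MYC and 0.12 for SOX4, none of which passed.

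Each tested member was also checked for a library far from the others in NT_MEIS1ex and in MEIS1_KO, 18 groups of 4 libraries in all. By the gap to the nearest library over the range of the group, 0 crossed the 95% critical value, where chance marks about 1 group in 20.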

How the results depend on the processing

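Of 1053 values of single members under the alternatives, 993 kept their direction and side of the threshold, 26 passed newly, 8 ceased to pass and 26 changed sign. Called changes of MEF2C, GATA2, RUNX1, SOX4, MYB, LMO2 and ZEB2 in HOXA9_KO kept direction and call under every alternative run.

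Sign changes under scaling to nuclear protein-coding counts were, in HOXA9_KO, MYC -0.23 and RUNX2 -0.14; in SAFB_KO, MYB -0.07, MYC -0.09 and SOX4 -0.09; in MEIS1_KO, MYB 0.01; for HOXA9 minus MEIS1 effects, MYC -0.02, RUNX2 -0.06 and ZEB2 -0.20; for SAFB minus MEIS1 effects, MYB -0.09 and LMO2 -0.02. With genes of at least 2 CPM they were MYC -0.04 in HOXA9_KO, and MYC -0.01 and SOX4 -0.01 in SAFB_KO. Leaving out each library, MYC in HOXA9_KO ranged from -0.0034 to 0.04, SOX4 in SAFB_KO from -0.00019 to 0.10, MYB in MEIS1_KO from -0.04 to 0.01, and RUNX2 in the SAFB minus MEIS1 difference from -0.08 to 0.07. For the last, RLE factors and DESeq2 each gave 0.01. None of these passed under the settings of the report except MYC in the HOXA9 minus MEIS1 difference.

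Members called ranged, leaving out each library, over 7 to 7 in HOXA9_KO, 4 to 5 in SAFB_KO and 4 to 6 in MEIS1_KO. All genes called in MEIS1_KO were 1387, ranged from 751 to 1772 leaving out a library (751 without the third and 873 without the second MEIS1_KO library, 884 without the fourth NT_MEIS1ex library) and were 2144 in a fit of all 17 libraries. With genes of at least 2 CPM, 5 members differed between SAFB and MEIS1 effects, and 3 with the settings of the report. The cause was not tested.

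Deviations of same-numbered libraries correlated from -0.0368 to 0.0858 in the first experiment and from -0.276 to 0.0918 in the MEIS1 experiment. For libraries of different numbers the ranges were -0.0722 to 0.0553 and -0.196 to 0.232. With so few libraries these values cannot say whether equal numbers mark a shared culture. With a replicate block, members called were 7, 5 and 4 in the 3 knockouts, as without it, and all genes called were 10787, 6718 and 1195.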
